A study of Mus musculus with 8 samples.

Results

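The Slc25 genes encode the mitochondrial carriers, the proteins that move metabolites, nucleotides, phosphate and cofactors across the inner mitochondrial membrane. Every gene of the deposited table whose symbol is Slc25a followed by a number was taken, which gave 47 of 35976 genes. Of these, 38 had a mean of at least 0.5 TPM over the libraries and were tested, and the other 9 are listed with their levels. TPM, the length-scaled transcript abundance, is a level that can be compared between genes.

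RNA was sequenced from whole mouse liver in 8 samples. The CTRL group has 5 samples and the OPA1_LKO group has 3, in which Opa1 was deleted in hepatocytes. Mice of both groups received a high fat diet. The Cre driver, the deleted exons, sex and age are unstated in the sources used here, and nothing states that each sample is a separate animal, so the p-values measure only the spread between these samples.

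A mitochondrial carrier is a small protein of repeated membrane-spanning units that opens alternately to the cytosol and to the matrix, and most carriers exchange one solute for another. In the liver they link compartments that share a pathway. Citrate leaves the matrix for fatty acid synthesis, ornithine and citrulline cross during the urea cycle, acylcarnitines enter for oxidation, and aspartate and dicarboxylates leave for gluconeogenesis. Opa1, the target of the deletion, fuses the inner membrane in which the carriers sit.

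The libraries held 16076404 to 20471271 counts on genes, and 11.96% to 26.4% of them came from the mitochondrial genome. Opa1 stood at 39.9 to 57.6 CPM (counts scaled to a common library size) in CTRL and at 24.7 to 34.4 CPM in OPA1_LKO, without overlap. Its difference was -0.63 ± 0.17 (SE) on the log2 scale with an adjusted p of 0.0539 in edgeR's quasi-likelihood test with Benjamini-Hochberg adjustment, which narrowly missed the threshold of 0.05. CTRL replicate 1 stood apart: Apoe was at 134 CPM in it and at 20759 or more in each other library. Its summed level of 12 macrophage markers was 1093 CPM, where the other CTRL libraries had at most 434 CPM. The labels give this library as CTRL, and whether it comes from an animal of another genotype was not tested. CTRL replicate 3 had the highest mitochondrial share, and its bile duct keratin Krt19 was at 22.3 CPM, where the other CTRL libraries had at most 1.03 CPM. The 10 hepatocyte markers summed to 66432 to 118844 CPM in CTRL and 78306 to 98217 CPM in OPA1_LKO, and 1 of them, Pck1, rose. The 9 bile duct markers summed to 35.1 to 89.6 CPM in CTRL and 165.6 to 220.4 CPM in OPA1_LKO, with 3 of the 8 tested higher (Krt7, Sox9 and Spp1). Spp1 alone had 122 to 176 CPM in OPA1_LKO. Without it the sums were 16.1 to 68.6 CPM in CTRL and 38.4 to 44.2 CPM in OPA1_LKO. These ranges overlapped through CTRL replicate 3 alone, which had the 68.6 CPM. Every remaining CTRL library had a lower sum without Spp1 than every OPA1_LKO library. The 10 stellate cell markers summed to 193.6 to 277 CPM in CTRL and 289 to 670 CPM in OPA1_LKO, with 0 of 10 called. The 670 CPM was OPA1_LKO replicate 2, where replicates 1 and 3 had 289 and 332 CPM. Dcn alone had 101.6 to 190 CPM in CTRL and 137 to 336 CPM in OPA1_LKO. Of the endothelial markers 0 of 8 were called, of the lymphocyte and neutrophil markers 0 of 8, of the red cell markers 0 of 5 and of the adipocyte and muscle markers 0 of 1. Of all these markers only Myh4, of muscle, had no count in any library. The part of these other cell types in the carrier results was not tested. In bulk tissue, fewer cells of a type and less RNA per cell cannot be told apart.

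Of the 38 tested carriers, 4 changed. Slc25a22, a glutamate carrier, and Slc25a27, an uncoupling-type carrier, rose in OPA1_LKO, and Slc25a10, the dicarboxylate carrier, and Slc25a45, a relative of the carnitine carrier, fell. That is 10.5% of the carriers, beside 6.03% of all 14036 genes in the fit. The 2 in each direction compare with 3.34% of all genes called higher and 2.69% called lower. The other 34 did not pass the test, and the highly expressed carriers of ATP, phosphate and acylcarnitine were among them. On TPM with a pseudocount of 1 the split was 2 higher (Slc25a22 and Slc25a51) and 0 lower, beside 3.02% of all genes called. Of the 4 carriers above, only 1 (Slc25a22) was still called there. With upper-quartile scaling the split was 2 higher and 1 lower, beside 5.82%, and Slc25a45 was no longer called. An unadjusted p under 0.05 was reached by 13 of the 38, where 23.8% of all genes reached it. The change was negative for 24 of 38 (63.2%), where it was negative for 53.1% of all genes. The median change of the carriers was -0.12 on the log2 scale and that of all genes -0.03. On log2(TPM + 1) these medians were 0.06 and 0.09, so the sign of the carriers' median depends on the scale.

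**Figure D1:**
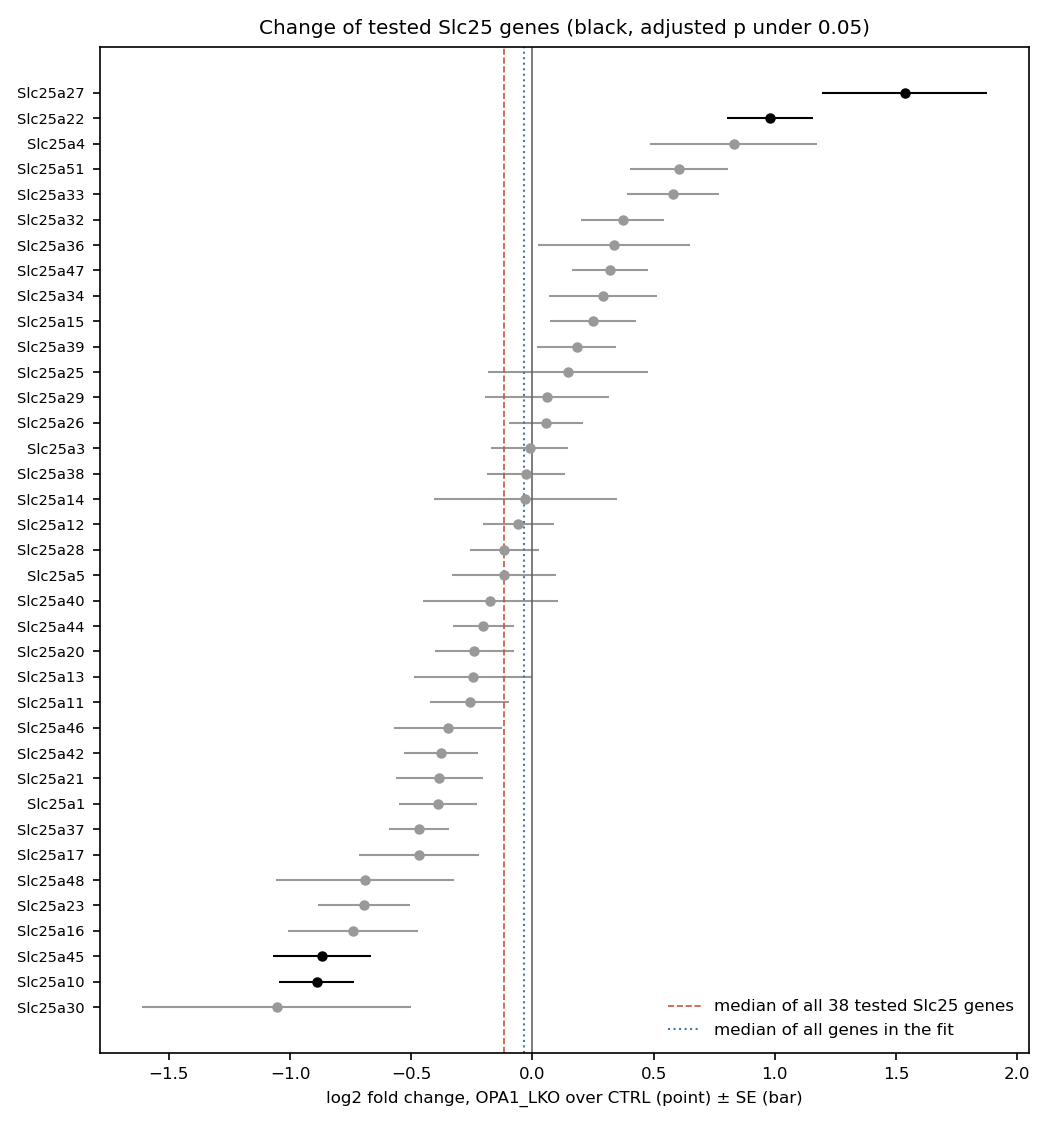
The log2 fold change of 37 of the 38 tested Slc25 genes, OPA1_LKO over CTRL, with its SE as a bar. The 4 genes in black passed the test: Slc25a27 at 1.54, Slc25a22 at 0.98, Slc25a45 at -0.87 and Slc25a10 at -0.89. The dashed and dotted lines mark the medians of the carriers and of all genes.

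The start regions of the 3 changed carriers with an entry among the RefSeq promoter windows (assembly GRCm38.p6) are shown, because their transcripts moved in opposite directions. Each window runs from 250 bases before to 50 bases after an annotated start, 5′ to 3′ along the gene. Slc25a22 has 3 such starts on the minus strand, at chr7:141437825-141438124, chr7:141435326-141435625 and chr7:141434545-141434844. Slc25a10 lies at chr11:120491587-120491886 and Slc25a45 at chr19:5877572-5877871, each on the plus strand. Capitals mark the SP1 box (GGGCGG) and the CCAAT box (CCAAT), read on both strands, so that a box on the opposite strand appears as CCGCCC or ATTGG.
Slc25a22, the first start: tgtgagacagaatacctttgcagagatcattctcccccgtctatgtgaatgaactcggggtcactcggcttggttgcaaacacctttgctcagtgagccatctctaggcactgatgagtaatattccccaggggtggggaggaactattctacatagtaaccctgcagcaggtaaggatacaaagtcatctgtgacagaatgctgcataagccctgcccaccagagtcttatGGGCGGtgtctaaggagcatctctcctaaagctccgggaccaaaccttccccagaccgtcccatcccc
Slc25a22, the second start: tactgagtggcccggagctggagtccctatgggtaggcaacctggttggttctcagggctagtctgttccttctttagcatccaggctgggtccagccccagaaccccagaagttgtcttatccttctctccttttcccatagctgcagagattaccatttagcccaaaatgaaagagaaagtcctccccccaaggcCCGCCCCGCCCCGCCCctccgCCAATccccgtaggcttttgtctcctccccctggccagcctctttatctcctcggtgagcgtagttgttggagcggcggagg
Slc25a22, the third start: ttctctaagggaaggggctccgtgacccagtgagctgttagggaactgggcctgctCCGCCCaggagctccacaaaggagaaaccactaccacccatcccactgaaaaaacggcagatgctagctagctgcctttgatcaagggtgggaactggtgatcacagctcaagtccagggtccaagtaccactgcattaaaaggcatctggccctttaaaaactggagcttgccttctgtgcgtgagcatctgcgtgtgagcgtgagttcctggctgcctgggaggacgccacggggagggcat
Slc25a10: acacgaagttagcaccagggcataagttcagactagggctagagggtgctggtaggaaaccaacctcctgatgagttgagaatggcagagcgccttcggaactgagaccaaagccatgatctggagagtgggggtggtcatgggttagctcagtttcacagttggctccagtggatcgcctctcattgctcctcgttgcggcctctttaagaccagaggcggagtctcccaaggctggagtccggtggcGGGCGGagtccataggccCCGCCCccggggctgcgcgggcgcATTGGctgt
Slc25a45: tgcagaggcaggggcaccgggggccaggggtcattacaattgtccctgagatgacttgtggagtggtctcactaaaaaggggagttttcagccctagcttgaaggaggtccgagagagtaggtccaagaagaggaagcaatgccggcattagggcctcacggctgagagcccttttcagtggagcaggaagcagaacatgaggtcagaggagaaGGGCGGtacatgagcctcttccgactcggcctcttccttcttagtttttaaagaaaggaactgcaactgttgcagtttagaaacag
Each of the 5 windows holds at least 1 SP1 box, and the second Slc25a22 window holds 3 boxes, each sharing its end base with the next, followed by a CCAAT box. Of all 32851 promoter windows, 35.7% hold an SP1 box and 37.4% a CCAAT box. Among the 39 windows of the tested carriers, 33 (84.6%) hold an SP1 box and 21 (53.8%) a CCAAT box, which describes the letters only. None of the 5 windows held a TATA box (TATAAA), an E-box (CACGTG), an amino acid response element core (TGATGNAA), the palindromic NRF1 site or the DR1 direct repeat of nuclear receptors. These occur in 13.6%, 7.15%, 3.97%, 0.971% and 0.0396% of all windows. No match says only that these letters are not in these windows.

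The levels of the tested carriers ranged from 0.92 to 398 TPM, with a median of 13.1. Slc25a5, the main ADP/ATP carrier of liver, led at a mean of 398 TPM over the libraries. Slc25a39, which imports glutathione, followed at 355 TPM, Slc25a47, a carrier found almost only in liver, at 347 TPM, and Slc25a3, which brings in phosphate and copper, at 227 TPM. The fifth was Slc25a20, the carnitine and acylcarnitine carrier, at 133 TPM. These 5 held 64.4% to 72.5% of the family's summed TPM in each library. The ranges of Slc25a5, Slc25a39, Slc25a47 and Slc25a3 over the libraries overlapped from each to the next, so their order is not fixed beyond their spread, while every library of Slc25a20 was under every library of Slc25a3. Next came Slc25a1, the citrate carrier, at 90.8 TPM, Slc25a22 at 79.2, Slc25a10 at 76.2, Slc25a15, the ornithine carrier, at 59.3, and Slc25a23, a calcium-dependent ATP-Mg/phosphate carrier, at 52.1 TPM, with overlapping ranges from each to the next. The summed level of all members was 2063 ± 288 TPM in CTRL (SD, n = 5) and 2330 ± 238 TPM in OPA1_LKO (SD, n = 3), ranges that overlapped.

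**Figure D2:**
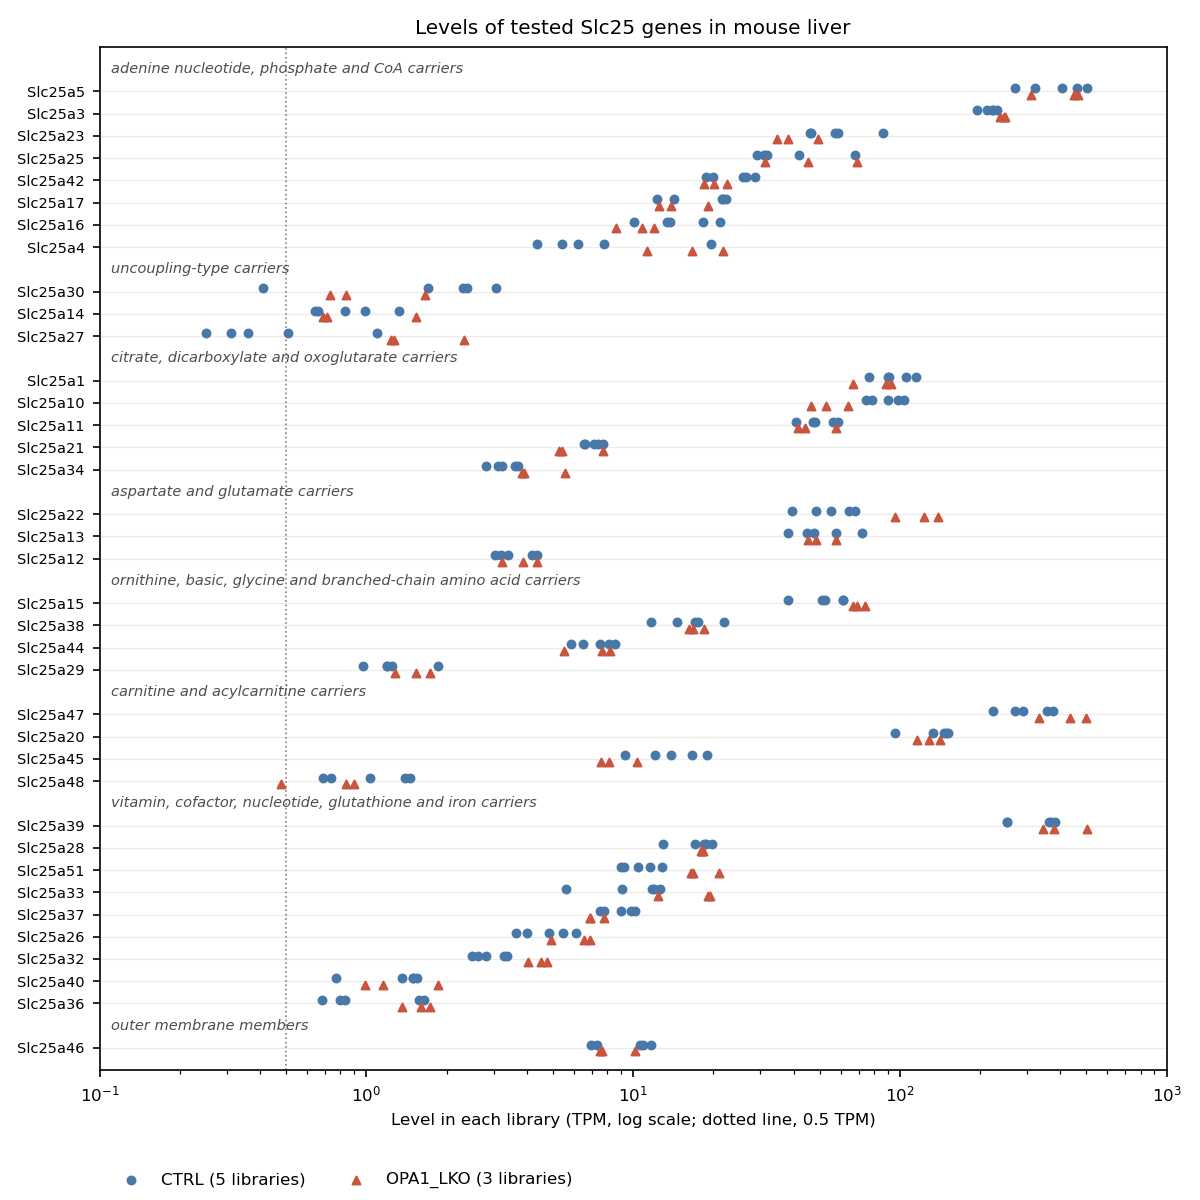
TPM of 37 of the 38 tested Slc25 genes in each of the 8 libraries, on a log axis, grouped by role, with the threshold of 0.5 TPM dotted. The OPA1_LKO libraries lie above all CTRL libraries for Slc25a3, Slc25a15, Slc25a22, Slc25a27, Slc25a32, Slc25a34 and Slc25a51 and below them for Slc25a10, and the other genes drawn overlap.

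The 9 carriers that were not tested had means of 0 to 0.48 TPM, and 7 of them were under 0.2 TPM. Slc25a2, the second ornithine carrier, had 11 counts in all CTRL libraries together and 9 in OPA1_LKO. Slc25a18, a second glutamate carrier, had 12 and 4, Slc25a31, a testis ADP/ATP carrier, 10 and 3, Slc25a41 1 and 0, Slc25a43 7 and 4, and Slc25a53 20 and 26 counts. Slc25a54 had no count in any library. Just under the threshold were Slc25a35 at 0.48 TPM and Slc25a24 at 0.451 TPM, and just over it were Slc25a27 at 0.92 and Slc25a14 at 0.922 TPM. Slc25a35 and Slc25a24 had enough counts for the fit, at log2 differences of -0.77 (edgeR adjusted p = 0.349) and 0.24 (edgeR adjusted p = 0.818).

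Among the 3 tested aspartate and glutamate carriers, 1 rose. Slc25a22 (chr7:141429749-141437874) carries glutamate into the matrix together with a proton. It had 123, 147, 109, 133 and 129 CPM in CTRL replicates 1 to 5 and 248, 189 and 322 CPM in OPA1_LKO replicates 1 to 3. Every OPA1_LKO library was above every CTRL library, and the OPA1_LKO libraries were also the more spread. The means were 128.3 ± 14.02 CPM (SD, n = 5) and 253.1 ± 66.5 CPM (SD, n = 3), a 1.97-fold rise (log2 0.98 ± 0.18 SE, edgeR adjusted p = 0.0144). Without CTRL replicate 1 the log2 change was 0.97 (edgeR adjusted p = 0.014). Leaving out OPA1_LKO replicate 1 or 3 ended the call (edgeR adjusted p = 0.0669 and 0.0575), as every call of a carrier ended without either of these.

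The aspartate/glutamate carriers proper, which belong to the malate-aspartate shuttle, did not pass the test. Slc25a13 (citrin), the liver form, averaged 152 ± 51.8 CPM over CTRL and 128.4 ± 15.6 CPM over OPA1_LKO (log2 -0.24 ± 0.24, edgeR adjusted p = 0.58). Slc25a12 (aralar), the form of muscle and brain, was at 9.12 ± 0.469 and 8.77 ± 1.28 CPM. The TPM of Slc25a22 was 67.3% to 134.7% of that of Slc25a13 in CTRL and 167% to 288% in OPA1_LKO, without overlap, and the glutamate carrier exceeded citrin in 4 of 5 CTRL libraries and in 3 of 3 OPA1_LKO libraries. That of Slc25a12 was 4.21% to 9.11% of Slc25a13 in CTRL and 7.15% to 8.01% in OPA1_LKO.

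The shuttle enzymes around these carriers moved in both directions, with 1 of 6 higher and 2 of 6 lower, beside 3.34% and 2.69% of all genes. They belong to the partner lists, the transporters and enzymes read beside the carriers. Over all these lists 4 of 68 tested genes were called, near the 6.03% of all genes. Got1, the cytosolic aspartate aminotransferase, had 57.0, 139, 71.2, 144 and 123 CPM in the CTRL libraries and 240, 257 and 332 CPM in the OPA1_LKO libraries. The groups did not overlap, and Got1 rose by 1.37 ± 0.30 on the log2 scale (edgeR adjusted p = 0.0268). The enzymes of the glycerol phosphate shuttle fell. Gpd1, the cytosolic glycerol 3-phosphate dehydrogenase, went from 413.9 ± 49.0 to 239.3 ± 25.9 CPM (log2 -0.79 ± 0.16, edgeR adjusted p = 0.0188). Gpd2, its mitochondrial partner, went from 21.5 ± 2.77 to 14.3 ± 1.44 CPM (log2 -0.59 ± 0.14, edgeR adjusted p = 0.042). Got2, Mdh1 and Mdh2 did not pass the test. None of these enzyme calls held without OPA1_LKO replicate 1 or replicate 3.

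Among the 5 tested carriers of citrate, dicarboxylates and oxoglutarate, 1 fell and 0 rose. Slc25a10 (chr11:120491837-120501161) exchanges malate and succinate for phosphate. It had 277, 343, 350, 327 and 391 CPM in the CTRL libraries and 170, 203 and 173 CPM in the OPA1_LKO libraries. The 3 OPA1_LKO libraries lay close together and well under the lowest CTRL library. The means were 337.5 ± 41.6 CPM (SD, n = 5) and 182.2 ± 17.96 CPM (SD, n = 3), a 1.85-fold fall (log2 -0.89 ± 0.16, edgeR adjusted p = 0.0126). Per length it averaged 89.3 ± 12.6 TPM over CTRL and 54.3 ± 8.81 TPM over OPA1_LKO. On log2(TPM + 1) the adjusted p in limma was 0.0623. An antisense transcript, Gm11788, overlaps Slc25a10, and how the authors' counting used strand is not given in the sources used here.

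Slc25a1 (citrate) averaged 143.7 ± 22.2 CPM over CTRL and 109.7 ± 10.4 CPM over OPA1_LKO (log2 -0.39 ± 0.16, edgeR adjusted p = 0.179), and the groups overlapped. Slc25a11, the oxoglutarate carrier of the malate-aspartate shuttle, was at -0.26 ± 0.16, and Slc25a21, the oxoadipate carrier of lysine breakdown, at -0.38 ± 0.18 (log2 difference). Slc25a34, whose solute is not settled, was at 0.29 ± 0.22. The median of the 5 was -0.38 on the log2 scale, with 4 of 5 negative and 4 of 5 not called. Of the 6 genes of citrate export and use outside the family, 0 were called. Mpc1 and Mpc2 form the mitochondrial pyruvate carrier, which belongs to another family. Mpc1 was at -0.71 ± 0.27 (edgeR adjusted p = 0.152) and Mpc2 at -0.14 ± 0.19 (edgeR adjusted p = 0.691), and 0 of 21 tested transporters outside the Slc25 symbols were called.

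Among the 4 carriers of the carnitine group, 1 fell. Slc25a45 (chr19:5877801-5885768) is close in sequence to the carnitine/acylcarnitine carrier. It had 26.6, 21.4, 32.5, 17.97 and 20.3 CPM in the CTRL libraries and 11.5, 14.7 and 12.8 CPM in the OPA1_LKO libraries. The groups did not overlap in CPM, although the lowest CTRL library was near the highest OPA1_LKO library, and in TPM they overlapped. The means were 23.8 ± 5.82 CPM (SD, n = 5) and 13.02 ± 1.57 CPM (SD, n = 3), a 1.83-fold fall (log2 -0.87 ± 0.20, edgeR adjusted p = 0.0355). The call held in 2 of 8 fits that each left out 1 library, and the highest edgeR adjusted p among them was 0.168, without OPA1_LKO replicate 1. It was lost as well with upper-quartile scaling (edgeR adjusted p = 0.0642) and on log2(TPM + 1) (limma adjusted p = 0.165).

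Slc25a20, which takes acylcarnitines into the matrix, averaged 216.5 ± 39.3 CPM over CTRL and 183.3 ± 7.31 CPM over OPA1_LKO (log2 -0.24 ± 0.16, edgeR adjusted p = 0.41). Slc25a47 was at 419.8 ± 50.6 and 523.5 ± 67.4 CPM (log2 0.32 ± 0.16, edgeR adjusted p = 0.249), and Slc25a48, at under 2.3 CPM in each library, was at -0.69 ± 0.37 in log2 difference. The TPM of Slc25a45 was 3.91% to 5.74% of that of Slc25a47 in CTRL and 1.64% to 2.37% in OPA1_LKO, without overlap. None of the 7 genes read beside the carnitine carriers was called in edgeR. Cpt1a, which makes acylcarnitines at the outer membrane, was at -0.11 ± 0.18, and Cpt2, which returns them to acyl-CoA in the matrix, at -0.12 ± 0.14 in log2 difference.

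Among the 3 uncoupling-type carriers named in the family's numbering, 1 rose. Slc25a27 (UCP4, chr17:43637739-43667214) is best known from brain. It had 3.03, 1.24, 2.12, 1.37 and 1.43 CPM in the CTRL libraries and 4.71, 3.96 and 7.46 CPM in the OPA1_LKO libraries. The groups did not overlap, and CTRL replicate 1 was the highest CTRL library. The rise was 2.90-fold (log2 1.54 ± 0.34, edgeR adjusted p = 0.0295), from 162 counts in all CTRL libraries and 316 in OPA1_LKO. In TPM it averaged 0.506 ± 0.346 over CTRL and 1.61 ± 0.615 over OPA1_LKO, a low level in either group, and on log2(TPM + 1) the limma adjusted p was 0.0683. The call held in 3 of 8 fits that left out 1 library, and without OPA1_LKO replicate 3 the edgeR adjusted p was 0.14. Slc25a14 (UCP5) was at -0.03 ± 0.38, and Slc25a30, a related kidney carrier, at -1.06 ± 0.56 (edgeR adjusted p = 0.281), with CTRL libraries from 0.727 to 5.49 CPM. Of the uncoupling proteins that keep their older symbols, Ucp2 averaged 71.7 CPM over CTRL and 73.5 CPM over OPA1_LKO (log2 0.04 ± 0.48, edgeR adjusted p = 0.974). Ucp1, the heat-producing carrier of brown fat, and Ucp3 had too few counts for the fit.

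**Figure D3:**
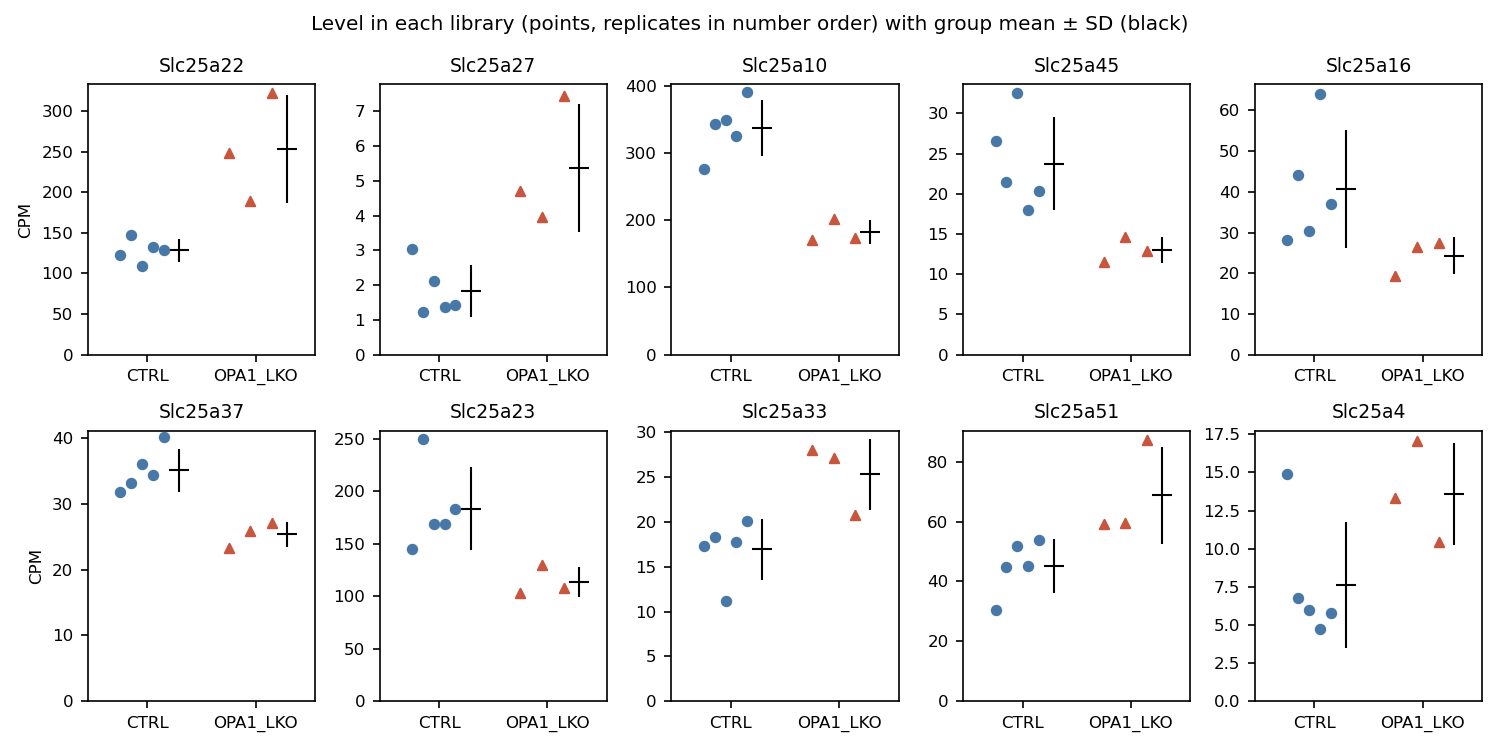
CPM in each library for the 4 changed carriers, for 5 further carriers whose groups did not overlap, and for Slc25a4, with the group mean and SD in black. Slc25a22 lies between 189 and 322 CPM in OPA1_LKO and between 109 and 147 CPM in CTRL, and CTRL replicate 1 of Slc25a4 lies among the OPA1_LKO libraries.

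In CPM, the groups did not overlap for 10 of the 38 tested carriers (26.3%), where 16.4% of all genes did not. Of these, 4 were higher in OPA1_LKO (Slc25a22, Slc25a27, Slc25a33 and Slc25a51), beside 8% of all genes, and 6 lower (among them Slc25a10, Slc25a16, Slc25a23, Slc25a37 and Slc25a45), beside 8.41% of all genes. In TPM, 8 did not overlap, beside 12.3% of all genes. Of these, 7 were higher (Slc25a3, Slc25a15, Slc25a22, Slc25a27, Slc25a32, Slc25a34 and Slc25a51), beside 9.52% of all genes, and Slc25a10 was lower, beside 2.79%. Of the 6 that were lower in CPM, only Slc25a10 was also lower in TPM. Of the 4 that were higher in CPM, 3 were also higher in TPM, with Slc25a33 the exception.

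The group of vitamin, cofactor, nucleotide, glutathione and iron carriers held 4 of these 10 genes, and 0 of its 10 tested members were called. Slc25a37 (mitoferrin-1), an iron carrier, had 31.8, 33.1, 36.1, 34.3 and 40.2 CPM in the CTRL libraries and 23.3, 25.8 and 27.0 CPM in the OPA1_LKO libraries (log2 -0.47 ± 0.12, edgeR adjusted p = 0.0539). Its groups were apart but narrowly missed the threshold, and 4 other genes overlap it. Slc25a28 (mitoferrin-2), the other iron carrier, was at -0.12 ± 0.14, and its TPM was 167% to 237% of that of Slc25a37 in CTRL and 236% to 263% in OPA1_LKO.

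Slc25a51 imports NAD+. It had 30.6, 44.9, 51.7, 45.2 and 53.7 CPM in the CTRL libraries and 59.3, 59.6 and 87.4 CPM in the OPA1_LKO libraries (log2 0.60 ± 0.20, edgeR adjusted p = 0.108). The highest CTRL library was near the lowest OPA1_LKO libraries, and on log2(TPM + 1) limma gave an adjusted p of 0.0468. Slc25a33, which carries pyrimidine nucleotides, had 17.4, 18.4, 11.1, 17.8 and 20.2 CPM in the CTRL libraries and 28.0, 27.1 and 20.8 CPM in the OPA1_LKO libraries (log2 0.58 ± 0.19, edgeR adjusted p = 0.102). Slc25a36, the other pyrimidine nucleotide carrier, was at 0.34 ± 0.31. Slc25a32, a folate and FAD carrier, was at 0.37 ± 0.17 (edgeR adjusted p = 0.224), Slc25a26, which imports S-adenosylmethionine, at 0.06 ± 0.15, and Slc25a39, the glutathione carrier, at 0.18 ± 0.16 (edgeR adjusted p = 0.535). Slc25a40, the second glutathione carrier, was at -0.17 ± 0.28, with a TPM of 0.305% to 0.597% of Slc25a39 in CTRL and 0.23% to 0.491% in OPA1_LKO. Of 17 genes for haem, folate, coenzyme A and iron-sulfur steps that depend on such carriers, 0 were called.

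None of the 8 tested carriers of adenine nucleotides, phosphate and coenzyme A was called in edgeR, and 6 of 8 had a negative difference with a median of -0.25. Slc25a5 (ANT2) averaged 439.8 ± 112 CPM over CTRL and 405.2 ± 53.4 CPM over OPA1_LKO (log2 -0.12 ± 0.21, edgeR adjusted p = 0.776). Slc25a3 was at 262.7 ± 38.3 and 260.5 ± 26.2 CPM (log2 -0.01 ± 0.16, edgeR adjusted p = 0.974). The signs of Slc25a5 and Slc25a3 turned positive on TPM, at 0.07 and 0.17 with a pseudocount of 1. These carriers supply the ATP synthase with ADP and phosphate.

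Slc25a4 (ANT1), the ADP/ATP carrier of heart and muscle, had 14.9, 6.74, 5.98, 4.73 and 5.79 CPM in the CTRL libraries and 13.3, 17.0 and 10.4 CPM in the OPA1_LKO libraries. CTRL replicate 1 was over all other CTRL libraries and within the OPA1_LKO range. With all libraries the difference was 0.83 ± 0.34 (edgeR adjusted p = 0.179), and without CTRL replicate 1 it was 1.23 (edgeR adjusted p = 0.00613). The TPM of Slc25a4 was 0.948% to 4.83% of that of Slc25a5 in CTRL, the highest in replicate 1, and 3.63% to 4.65% in OPA1_LKO.

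Slc25a23, which moves ATP-Mg against phosphate under control of calcium, had 145, 250, 169, 169 and 184 CPM in the CTRL libraries and 103, 130 and 108 CPM in the OPA1_LKO libraries (log2 -0.69 ± 0.19, edgeR adjusted p = 0.0605). The groups did not overlap, and without CTRL replicate 1 the edgeR adjusted p was 0.0272. Slc25a25, a relative with the same solute, was at 0.15 ± 0.33. Slc25a16, a carrier linked to coenzyme A, had 28.0, 44.1, 30.5, 64.1 and 36.9 CPM in the CTRL libraries and 19.2, 26.4 and 27.3 CPM in the OPA1_LKO libraries (log2 -0.74 ± 0.27, edgeR adjusted p = 0.131). Slc25a42, the coenzyme A carrier of the inner membrane, was at -0.38 ± 0.15 (edgeR adjusted p = 0.167), and Slc25a17, which sits in the peroxisome, at -0.47 ± 0.25 (edgeR adjusted p = 0.282). None of these passed the test, and of them Slc25a25 alone had a positive difference.

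None of the 4 tested carriers of ornithine, basic amino acids, glycine and branched-chain amino acids was called in edgeR, and their median difference was 0.02. Slc25a15 brings ornithine into the matrix for the urea cycle and averaged 171.7 ± 30.3 CPM over CTRL and 204.3 ± 29.9 CPM over OPA1_LKO (log2 0.25 ± 0.18, edgeR adjusted p = 0.423). Slc25a38, the glycine carrier of haem synthesis, was at -0.03 ± 0.16, Slc25a44, a carrier of branched-chain amino acids, at -0.20 ± 0.13, and Slc25a29, for basic amino acids, at 0.06 ± 0.26. Of 8 urea cycle and ornithine enzymes, 1 rose, beside 3.34% of all genes called higher. Asl, which splits argininosuccinate, went from 394.2 ± 97.7 to 804.3 ± 258 CPM (log2 1.03 ± 0.25, edgeR adjusted p = 0.0406). Ass1, the step before it, was at 0.77 ± 0.25 (edgeR adjusted p = 0.0976). Slc25a46, an outer membrane member of the family that takes part in mitochondrial fission and fusion, was at -0.35 ± 0.22 (edgeR adjusted p = 0.381).

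**Figure D4:**
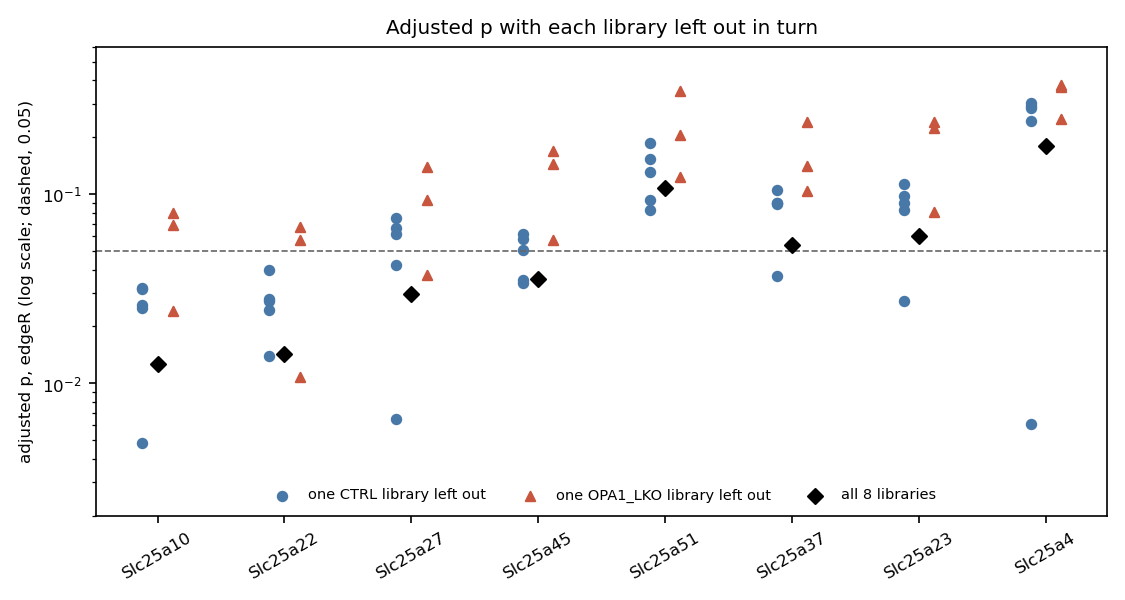
Adjusted p in edgeR, on a log axis, for 8 carriers with all 8 libraries (diamonds) and with each library left out in turn. For Slc25a10 and Slc25a22, 6 of 8 points each lie under the dashed line at 0.05, and for Slc25a4 the fit without CTRL replicate 1 gives 0.00613.

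The calls were further read with libraries left out. Slc25a10 and Slc25a22 were called in 6 of 8 fits that left out 1 library. Without CTRL replicate 1, 7 carriers were called, beside 12.2% of all genes: the 4 above, plus Slc25a4 (higher) and Slc25a23 and Slc25a37 (lower). Without CTRL replicate 2 or replicate 5, only Slc25a10 and Slc25a22 were called, beside 3.19% and 3.03% of all genes. Without OPA1_LKO replicate 1 or replicate 3, 0 carriers were called in edgeR, beside 1.38% and 1.6% of all genes (198 and 231). With DESeq2 on all libraries, 7 carriers were called, beside 10.4% of all genes, and Slc25a23 and Slc25a37 were among those added to the 4. The direction of the 4 was kept in each fit that was run.

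Shares of transcript models within each carrier were compared for 48 models of 20 genes by exact permutation (two-sided, all 56 divisions of the libraries into 5 and 3, smallest possible p 0.0357). None passed Benjamini-Hochberg adjustment over the 48 (lowest adjusted p = 0.629), and 2, both of Slc25a38, had an unadjusted exact p of 0.0357. At that smallest p, a model passes the adjustment only when most of the 48 reach it too. The test therefore cannot single out a change in a few models, and no conclusion is drawn from its outcome. The model XM_011242951.1 held 38.1% ± 6.09 of the TPM of Slc25a38 in CTRL and 58.0% ± 3.33 in OPA1_LKO. The model XM_006512020.1 held 14.4% ± 10.1 in CTRL and is listed at 0 in all 3 OPA1_LKO libraries, which RSEM can give when it assigns shared reads to other models. The total of Slc25a38 did not pass the test, as given above.

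For Slc25a22, 3 models had a mean of at least 0.5 TPM. The model XM_006536233.3 averaged 28.0 ± 4.22 TPM over CTRL and 71.9 ± 17.4 TPM over OPA1_LKO, and its share was 51.4% ± 4.06 and 60.0% ± 5.46 (exact permutation p = 0.0714). The model XM_006536232.1 had 30.4, 33.8, 16.4, 18.4 and 23.2 TPM in the CTRL libraries and 51.9, 34.8 and 45.3 TPM in the OPA1_LKO libraries. Both models were higher in all OPA1_LKO libraries than in any CTRL library. Which of the 3 start regions shown above each model uses is not given in the sources used here.

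**Figure D5:**
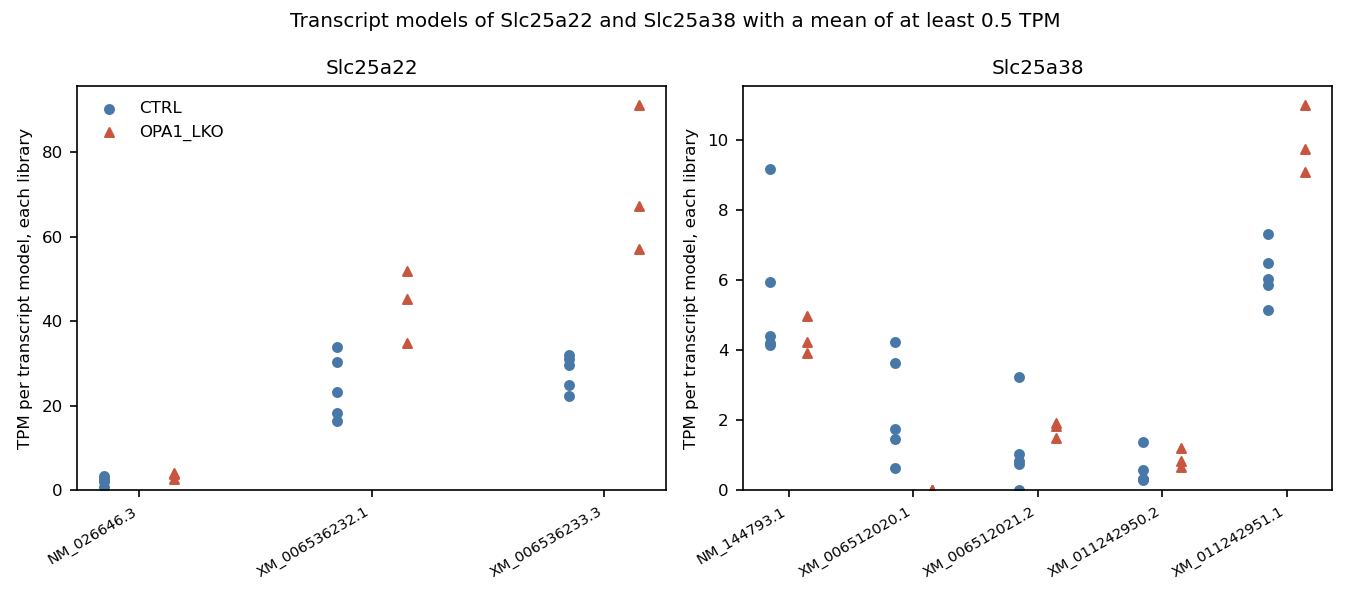
TPM of each transcript model of Slc25a22 and Slc25a38 with a mean of at least 0.5 TPM, in each library. The OPA1_LKO libraries of the Slc25a22 model XM_006536233.3 lie above all CTRL libraries, and the Slc25a38 model XM_006512020.1 is listed at 0 in all 3 OPA1_LKO libraries.

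The 47 carriers lie on 19 chromosomes, and 4 pairs are neighbours within 50000 bases in the GENCODE annotation of the same assembly. Slc25a29 and Slc25a47 on chromosome 12 are separated there by 162 bases and read in opposite directions. This distance depends on the annotation. GENCODE starts Slc25a47 at base 108836046, whereas RefSeq starts it at base 108849833, much further from the end of Slc25a29 at base 108835876. Their levels were far apart, at 1.38 and 347 TPM, and their log2 differences were 0.06 and 0.32, neither called. Slc25a41 and Slc25a23 on chromosome 17 are 2056 bases apart, and Slc25a41 had 1 count in all while Slc25a23 was at 52.1 TPM. Slc25a54 and Slc25a24 are 6461 bases apart and Slc25a43 and Slc25a5 18448 bases apart. In each of the 4 pairs, the less expressed neighbour was under 1.5 TPM. No other gene of the annotation overlaps Slc25a22, Slc25a27, Slc25a45 or Slc25a4. Among other carriers, an opposite-strand gene overlaps Slc25a10, Slc25a16, Slc25a23, Slc25a33 and Slc25a37, so their counts may hold reads of a partner.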

How the data were processed

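RNA of whole liver was sequenced from stranded mRNA libraries in 5 CTRL and 3 OPA1_LKO samples, per the labels' protocols. MultiQC, STAR, StringTie and RSEM are the tools listed in the submitters' processing notes (no version is listed), and mm10 is the build. Neither annotation release nor strand setting is stated in the sources used here. Values deposited by the authors are RSEM expected counts, which are not normalised, and TPM, scaled by length and depth, each per gene and per transcript. RSEM divides reads shared by similar genes by estimation.

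Expected counts were rounded. Genes were kept by filterByExpr (minimum count 10, minimum total 15), which left 14036. The groups were compared in edgeR 4.0.16 (R 4.3.3) with glmQLFit and glmQLFTest, its quasi-likelihood test, with TMM factors, group as the only term and Benjamini-Hochberg adjustment over these genes. An adjusted p under 0.05 was called changed, and the SE comes from the fold change and the F statistic. CPM uses the TMM-scaled library sizes. Levels are mean ± SD. Transcript shares were tested by exact permutation. The procedure was tested on simulated data, in which 50 genes of the 14036 were changed at each fold. In total fewer genes changed there than the 846 called in the data. The adjustment is stricter when fewer genes change, so the shares recovered may differ from those in the data. The procedure called 1 of 50 genes with a simulated 1.5-fold change and 22 of 50 with a 2-fold change. At 4-fold it called 43 of 50 and at 8-fold 48 of 50. A carrier that did not pass the test may therefore still have changed by such small folds.

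Alternatives were other scaling factors (RLE, upper quartile), DESeq2 1.42.0, limma-voom and log2 TPM in limma 3.58.1 with pseudocounts of 1 and 0.1, other filters, a replicate block, leaving out each library, and, chosen after seeing the data, leaving out CTRL replicates 1 and 3 together. The members, the role groups and the 71 genes of the partner lists were chosen with earlier results of these data known. Named carriers are those with an adjusted p under 0.05, those whose groups did not overlap in CPM, the 10 highest, the 15 smallest p and the 2 on each side of the TPM threshold. Others are named to complete their role group. Coordinates are those of the RefSeq annotation of GRCm38.p6, the assembly known as mm10. Distances between neighbours and overlapping genes are those of the GENCODE annotation. Promoter entries matched 36 of the 47 carriers and 30 of the 38 tested. The values of 1 tested carrier enter the counts and are not reported here.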

Additional observations from a re-analysis of the deposited data

Results flagged for a closer look

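In CTRL, 1 library of Slc25a4 stood apart from the other 4: CTRL replicate 1 was at 14.9 CPM and the others were at 4.73 to 6.74 CPM. The same was found for Slc25a14, at 1.66 CPM in CTRL replicate 5 and 0.951 to 1.01 CPM in the other CTRL libraries. Each gap was large against the whole range of its group by Dixon's criterion. The 38 tested carriers were examined, and chance alone marks about 1 in 20 groups, so 2 marked genes of 38 are near that rate. CTRL replicate 1 is also the library with the lowest Apoe (134 CPM) and the highest summed macrophage markers (1093 CPM), and the part of this in the level of Slc25a4 was not tested.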

How the results depend on the processing

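With all libraries, 4 carriers were called, beside 6.03% of all genes. The count was 7 with DESeq2 (2 higher, 5 lower; 10.4% of all genes), 6 with limma-voom (2 higher, 4 lower; 6.76%) and 3 with upper-quartile factors (2 higher, 1 lower; 5.82%). It was 2 on log2(TPM + 1) (Slc25a22 and Slc25a51 higher, 0 lower, 3.02%) and 1 on log2(TPM + 0.1) (Slc25a22 higher, 0 lower, 2.89%). It stayed at 4 with RLE factors (5.96%), without a low-count filter (2.7%) and with a TPM filter (5.44%), and 1 carrier was higher among those of at least 1 TPM. On log2(TPM + 1) and log2(TPM + 0.1) the median of the carriers was 0.0551 and 0.0747, and the median of all genes moved up by 0.124 and 0.158. Leaving out 1 library gave 0 to 7 called carriers, 0 to 3 higher and 0 to 4 lower, beside 1.38% to 12.2% of all genes. Leaving out CTRL replicates 1 and 3 together gave 12 carriers (4 higher, 8 lower), beside 21.3% of all genes. The 4 changed genes of the partner lists, of 68 tested, became 12 of 70 with DESeq2. They became 2 of 66 on log2(TPM + 1) and 2 of 66 on log2(TPM + 0.1). They became 0 to 11 with 1 library left out and 20 without CTRL replicates 1 and 3. The shares of all genes in these fits are those given above. The cause of these changes in the counts was not tested.

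The labels give both groups replicate numbers 1 to 3. Same-numbered libraries deviated together with correlations of 0.072, 0.0537 and 0.175, so not every pair was over the 0.1 asked for here to treat the numbers as pairs, although 3 of 3 CTRL libraries correlated best with their own number. With the replicate block, 2 carriers were called (0 higher, 2 lower: Slc25a10 and Slc25a45), 2 genes of the partner lists, and 367 (2.61%) of all genes. CTRL replicates 4 and 5 have no OPA1_LKO library of the same number. They add nothing to the difference under the block, which rests on 3 libraries per group. The part of this in the smaller number of calls was not tested. Under the block the edgeR adjusted p of Slc25a22 was 0.0892 and that of Slc25a27 was 0.0989.

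The sign turned in at least 1 of 18 alternatives for 10 of the 38 tested carriers, whose differences with all libraries were at most 0.245 in size: Slc25a3, Slc25a5, Slc25a12, Slc25a13, Slc25a14, Slc25a25, Slc25a26, Slc25a28, Slc25a29 and Slc25a38. On log2(TPM + 1) it turned for 6 of them. Slc25a3 was at 0.0765 with upper-quartile factors, 0.0176 with a TPM filter, 0.173 and 0.174 on the TPM scales and 0.0959 with the replicate block. Slc25a5 was at 0.0748 on log2(TPM + 1) and 0.0750 on log2(TPM + 0.1). Slc25a14 was at 0.0574 with upper-quartile factors, 0.00507 with a TPM filter, 0.0508 and 0.0792 on the TPM scales and 0.0856 with the replicate block. Leaving out 1 library gave -0.0890 to 0.0719 for Slc25a3, -0.185 to 0.0357 for Slc25a5 and -0.448 to 0.183 for Slc25a14. With 3 OPA1_LKO libraries the transcript test cannot go below 0.0357, and carriers under 1 TPM rest on few counts.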
